A study of Homo sapiens with 2 samples.

Results

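Aminoacyl-tRNA synthetases join each amino acid to its transfer RNA, the step that lets a codon be read as an amino acid. Human cells use one set of nuclear genes for the cytosol and a largely separate set, usually marked by a 2 at the end of the symbol, for the mitochondrion. The genes examined here were 36 named synthetase genes, 20 cytosolic and 16 mitochondrial, out of 57820 gene identifiers in the deposited table. They were chosen by name, with earlier results of these data known. All 36 were matched by Ensembl identifier and passed the filter for expressed genes, a mean of at least 1 CPM, a count scaled to library depth, over the libraries. GARS and KARS were kept with the cytosolic set, although each encodes both the cytosolic and the mitochondrial enzyme.

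RNA had been sequenced from HCT116, an established line from a human colon carcinoma, with 1 library for the genotype CREB1 wild-type and 1 for CREB1 knockout. The protein CREB1 activates genes that carry cAMP response elements (CRE) after phosphorylation. The knockout line was a single clone, edited with a Cas9 nickase directed at CREB1, so loss of CREB1 and differences particular to the clone cannot be told apart. Both lines grew in DMEM with serum, and no other treatment is given. The knockout library held 31178312 expected counts and the wild-type library 34511071. CREB1 itself had 614 wild-type and 499 knockout counts, a log2 ratio of -0.23, which leaves the label unchecked because edits of a few bases are invisible in a count per gene. The epithelial genes EPCAM, KRT8, KRT18, KRT19 and CDH1 were detected in both libraries, from 26.8 CPM upwards. Their log2 ratios of knockout over wild-type were -0.26 for KRT18, -0.20 for KRT8, -0.13 for KRT19, -0.02 for EPCAM and 0.18 for CDH1, about as far from 0 as many synthetases, and their part in the results was not tested. The leukocyte marker PTPRC had 0 counts in both, which allows up to 3, and the fibroblast collagen COL1A1 lay at 2.47 CPM (wild-type) and 2.78 CPM (knockout).

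Cells that lack a charged transfer RNA activate the kinase GCN2 (EIF2AK4), which phosphorylates eIF2alpha and thereby raises translation of the transcription factor ATF4. ATF4 is known to activate genes of amino acid uptake, amino acid synthesis and many cytosolic synthetases, through a composite site called the C/EBP-ATF response element. Mitochondrial synthetases, imported after synthesis in the cytosol, serve translation of the few proteins encoded in mitochondrial DNA.

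The cytosolic synthetase mRNAs were mostly lower in the knockout library, and the mitochondrial ones lay on both sides of no difference. The median log2 ratio of the knockout over the wild-type was -0.18 over the 20 cytosolic genes and 0.11 over the 16 mitochondrial genes, a difference of -0.29, while the median over 12886 expressed genes was 0.01. In linear terms these medians were 0.884 and 1.08 times the wild-type level. Of the cytosolic genes, 16 lay below 0, and of the mitochondrial genes 6 did, where 48.8% of expressed genes lay below 0. All ratios were modest: 0 of 36 members reached 1.5-fold in either direction, a change made by 5.53% of expressed genes downwards and 5.27% upwards. Among protein-coding genes with at least 10 CPM, a level that all members but WARS2 and PARS2 had, these shares were 2.75% and 3.05%, and a count of 0 among 36 is near them. With 1 library per group there is no replicate check and no p-value, and the intervals given are exact 95% intervals of the counts, which cover counting error only. In bulk RNA, fewer cells of a kind and less RNA per cell cannot be told apart.

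The counts of members ranged from 143 to 9014, and the lowest cytosolic count was 1175. The counting interval included 0 for 4 of 20 cytosolic and 6 of 16 mitochondrial genes. An interval wholly below 0 was found for 14 cytosolic and 4 mitochondrial genes, against 25.5% of all expressed genes and 29.1% of protein-coding genes with at least 10 CPM. An interval wholly above 0 was found for 2 cytosolic and 6 mitochondrial genes, against 26.4% and 31%. An interval apart from 0 was thus common in this pair of libraries. Summed over the 20 cytosolic genes, the wild-type counts were 73930 (Poisson interval 73398 to 74465) and the knockout counts 60484 (60003 to 60968). Scaled for depth, this was 2197 CPM against 1891 CPM, a log2 ratio of -0.22 (interval -0.23 to -0.20). The 16 mitochondrial genes summed to 14924 (14686 to 15165) and 15066 (14826 to 15309) counts, or 443.5 against 471.1 CPM, a log2 ratio of 0.09 (0.05 to 0.12).

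**Figure D1:**
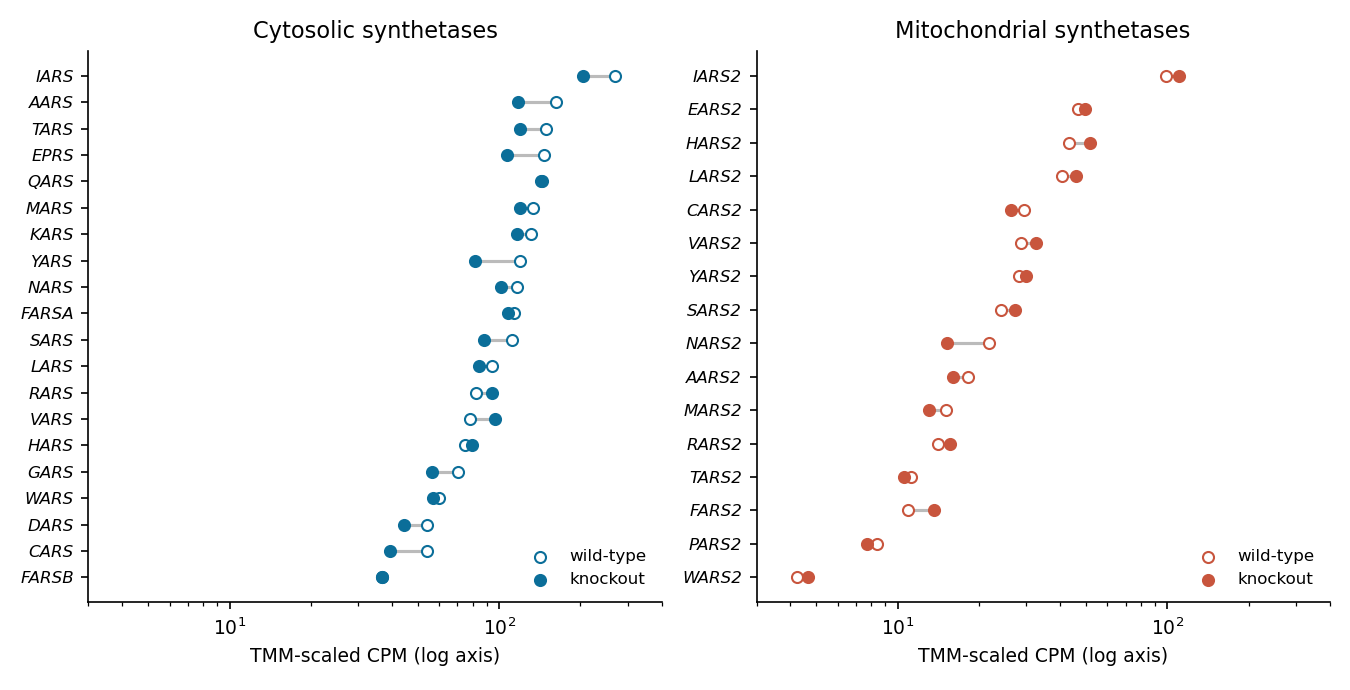
Level of each synthetase mRNA in the wild-type (open) and knockout (filled) library, in TMM-scaled CPM on a log axis, cytosolic genes on the left and mitochondrial genes on the right, with 1 library per group. Most cytosolic points move left from wild-type to knockout, whereas 10 of 16 mitochondrial points move right.

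Among the cytosolic genes, 12 are often listed as ATF4 targets, and these held most of the difference. All 12 lay below 0, with a median log2 ratio of -0.33, and 11 of them had an interval below 0. Of all expressed genes, 48.8% lay below 0 and 25.5% had an interval below 0. The 8 cytosolic genes not so listed had a median of 0.00, with 3 intervals below 0, 2 above and 3 that included 0. These counts are near the shares of expressed genes, 25.5% below and 26.4% above. The list of ATF4 targets was written from general knowledge with earlier results on ATF4 target genes in these libraries known, so the division is a description. Summed counts showed the same division: the 12 genes went from 49927 to 37550 counts (log2 ratio -0.34, interval -0.36 to -0.32) and the other 8 from 24003 to 22934 counts (0.01, interval -0.02 to 0.03).

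YARS, the tyrosyl-tRNA synthetase, was the lowest of all 36, with 4001 wild-type and 2608 knockout counts. Its level went from 118.9 to 81.6 CPM, which is 1.46-fold lower (log2 ratio -0.54, interval -0.62 to -0.47), and 6.56% of expressed genes lay as low or lower. AARS, which charges alanine, had 5481 and 3753 counts, a log2 ratio of -0.47 (interval -0.53 to -0.41). EPRS, a single protein that charges both glutamate and proline, was close to it with 4919 and 3402 counts (-0.46, interval -0.52 to -0.40). CARS, for cysteine, had fewer counts (1821 and 1263) and nearly the same log2 ratio, -0.45 (-0.56 to -0.35). The intervals of these 4 genes overlap, so counting error alone does not order them.

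IARS, for isoleucine, was the most abundant member by counts, with 9014 wild-type and 6510 knockout counts, and its log2 ratio was -0.40 (interval -0.44 to -0.35). SARS, the seryl enzyme, had 3764 and 2806 counts (-0.35, interval -0.42 to -0.28). TARS, for threonine, had 5032 and 3832 counts, and GARS, for glycine, 2362 and 1799, both with a log2 ratio of -0.32. In these genes the knockout library held between 0.760 and 0.801 of the wild-type level. Smaller ratios were found for NARS (asparagine, 3902 and 3259 counts, -0.19), LARS (leucine, 3152 and 2690 counts, -0.16) and MARS (methionine, 4469 and 3818 counts, -0.15). WARS, for tryptophan, had 2010 and 1810 counts and a log2 ratio of -0.08, with an interval of -0.17 to 0.01 that includes no difference.

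Of the 8 remaining cytosolic genes, DARS, for aspartate, was the lowest, with 1822 and 1421 counts and a log2 ratio of -0.29 (interval -0.39 to -0.18). KARS, for lysine, followed with 4404 and 3722 counts (-0.17, interval -0.23 to -0.11). The phenylalanyl enzyme is built from FARSA and FARSB chains, and neither lay far from 0: FARSA had 3817 and 3441 counts (-0.08, interval -0.14 to -0.01, which included 0 with total-count scaling or a GC and length correction) and FARSB 1235 and 1175 (0.00, interval -0.11 to 0.12). QARS, for glutamine, had 4834 and 4560 counts, or 143.7 and 142.6 CPM, and an interval of -0.07 to 0.05 that includes 0. HARS, for histidine, had 2519 and 2524 counts and a log2 ratio of 0.08. Above 0 with their whole interval were RARS, for arginine, with 2759 and 3006 counts (0.20, interval 0.12 to 0.27), and VARS, for valine, with 2613 and 3085 counts (0.31, interval 0.24 to 0.39). VARS was the only cytosolic gene above the upper quartile of expressed genes, whereas 9 cytosolic genes lay below the lower quartile.

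**Figure D2:**
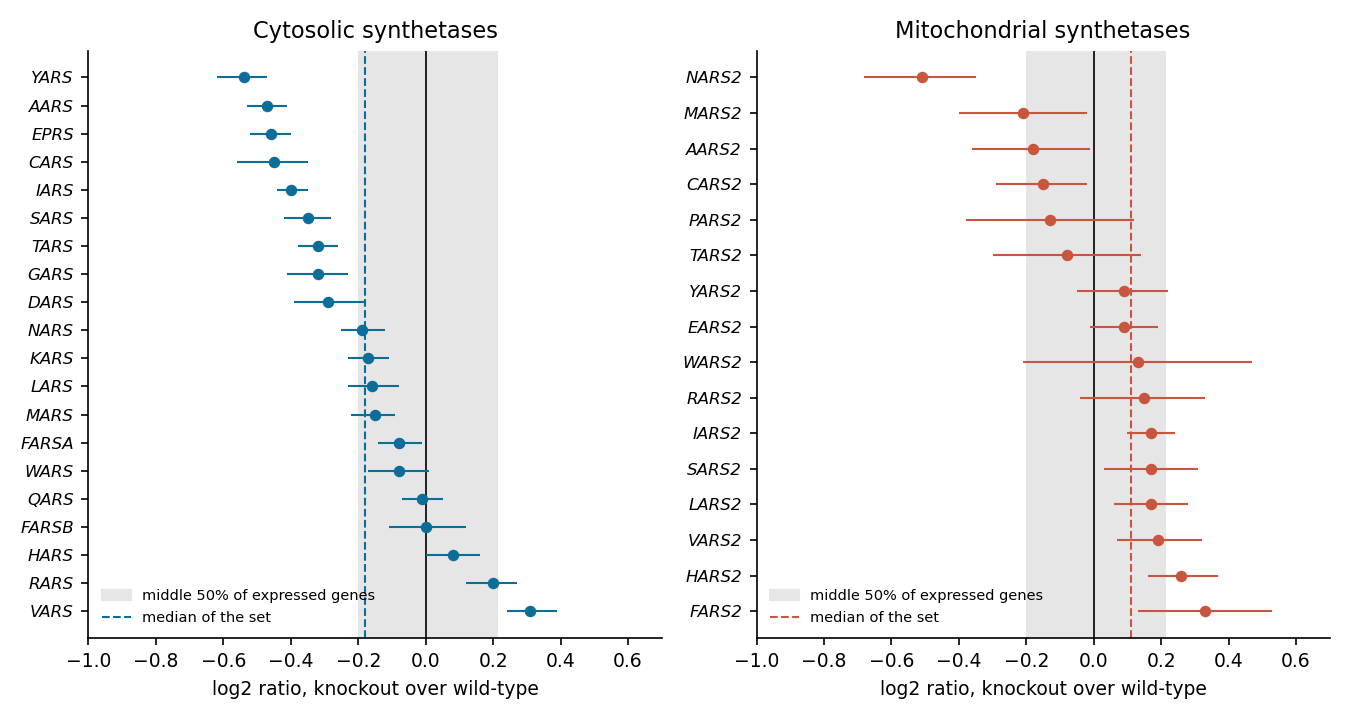
Log2 ratio of knockout over wild-type for each synthetase gene, with its exact 95% counting interval (bars), the median of the set (dashed line) and the middle 50% of 12886 expressed genes (grey band, log2 ratio -0.20 to 0.21). Of the cytosolic genes 9 lie left of the band and 1 right of it, and of the mitochondrial genes 2 lie left and 2 right.

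A group of 8 cytosolic enzymes is held in the multi-synthetase complex, a particle in which they are bound by the scaffold proteins AIMP1, AIMP2 and EEF1E1. Membership of this complex did not divide the genes as the ATF4 listing did. The 8 complex members (EPRS, IARS, LARS, MARS, QARS, RARS, KARS and DARS) had a median log2 ratio of -0.16, and the 12 others -0.25. Their summed counts had log2 ratios of -0.21 (interval -0.23 to -0.18) and -0.22 (-0.25 to -0.20), which overlap. The complex held both EPRS and IARS, at -0.46 and -0.40, and RARS at 0.20. Of the scaffold genes, EEF1E1 had 877 and 697 counts (-0.26, interval -0.40 to -0.11), AIMP2 1086 and 943 (-0.13) and AIMP1 765 and 845 (0.22, interval 0.07 to 0.36). Synthetases also fall into class I and class II by the fold of their catalytic domain. The medians of the cytosolic genes were -0.15 for 9 class I and -0.24 for 10 class II members, with EPRS, which joins both classes, left apart.

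Promoter sequences were examined for the core of the C/EBP-ATF element and for CRE motifs. Whether ATF4 or CREB1 binds these promoters was not tested. RefSeq windows on GRCh38.p14, a newer build than the authors' hg19, from 250 bases before to 50 after a start were found for 16 cytosolic and 14 mitochondrial genes. Motifs were searched on both strands, and a gene was counted if any of its windows held one. The core of the C/EBP-ATF element, TGATGNAA, was present in 7 of 16 cytosolic genes (43.8%), in 1 of 14 mitochondrial genes (7.14%) and in 245 of 9489 expressed protein-coding genes (2.58%). All 7 belonged to the 10 ATF4-listed genes with a window. Genes may be so listed because of this element, so the overlap is a description and no independent support. By contrast the short CRE core TGACG, which lies inside the full site, was held by 7 cytosolic (43.8%) and 5 mitochondrial genes (35.7%), close to 41.4% of expressed protein-coding genes. The full CREB site TGACGTCA was in 0 of the 16 cytosolic and 0 of the 14 mitochondrial genes, against 3.98% of expressed protein-coding genes. In so few genes a count of 0 is near that share. The stretches around the core are printed to show how alike the sites are. They read 5′ to 3′ along the gene, with the core in capitals. On the opposite strand TGATGNAA reads as TTNCATCA.
AARS, chr16:70289675-70289704, minus strand: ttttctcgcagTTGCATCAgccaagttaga
CARS, chr11:3057407-3057436, minus strand: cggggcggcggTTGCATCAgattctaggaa
GARS, chr7:30594834-30594863, plus strand: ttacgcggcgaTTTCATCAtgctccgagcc
IARS, chr9:92293692-92293721, minus strand: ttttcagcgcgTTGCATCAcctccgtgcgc
MARS, chr12:57488053-57488082, plus strand: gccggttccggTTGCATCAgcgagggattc
TARS, chr5:33440956-33440985, plus strand: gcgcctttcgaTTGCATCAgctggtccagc
NARS, chr18:57621807-57621833, minus strand: tctacgctctcTGATGCAAcgccggaa
YARS2, chr12:32756076-32756105, minus strand: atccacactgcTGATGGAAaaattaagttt

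The same letters, TTGCATCA, stood in AARS, CARS, IARS, MARS and TARS, its reverse complement TGATGCAA stood in NARS, and GARS had TTTCATCA. Counted from the start at position 1, the first base of the core lay within 33 bases of the start in 6 of these genes, and at -187 in AARS. The mitochondrial gene YARS2 had TGATGGAA at -197. The 7 cytosolic genes with the core had log2 ratios from -0.47 to -0.15, all below 0 with a median of -0.32. The 9 with a window but no core ranged from -0.46 to 0.20, with a median of -0.08. Among these 9, EPRS (-0.46), SARS (-0.35) and WARS (-0.08) are ATF4-listed and the rest are not. All 7 with the core are listed, so the 2 groups also differ in their share of listed genes. YARS, the lowest member, and LARS, both ATF4-listed, had no window. Over all expressed protein-coding genes the core went with a small difference, a median of -0.05 in 245 genes with it and 0.01 in 9244 without it. With the members left out, the median was -0.04 in 237 genes with the core. Of these, 54.4% lay below 0, against 48.4% of 9222 genes without it. A match of letters is not evidence of binding, and its part in the ratios was not tested.

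For comparison, the 250 bases before the start are given for the lowest 3 members with a window and at least 10 CPM (AARS, EPRS and NARS2) and for the highest (FARS2, the first of its 2 windows), with capitals for TGATGNAA, TGACG and TGACGTCA. AARS holds a TGACG and the core, EPRS holds a TGACG, and NARS2 and FARS2 hold none of the motifs in this stretch.
AARS, chr16:70289507-70289756, minus strand: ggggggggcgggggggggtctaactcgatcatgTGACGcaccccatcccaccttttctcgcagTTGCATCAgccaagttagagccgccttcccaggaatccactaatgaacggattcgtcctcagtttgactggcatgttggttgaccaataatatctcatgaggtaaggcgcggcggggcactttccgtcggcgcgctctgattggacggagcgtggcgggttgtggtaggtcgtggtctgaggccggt
EPRS, chr1:220046506-220046755, minus strand: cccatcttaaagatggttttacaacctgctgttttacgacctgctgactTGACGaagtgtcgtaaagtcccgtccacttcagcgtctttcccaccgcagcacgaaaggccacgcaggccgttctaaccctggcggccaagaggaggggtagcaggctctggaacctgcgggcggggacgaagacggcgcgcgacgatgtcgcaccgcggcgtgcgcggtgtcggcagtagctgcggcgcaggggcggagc
NARS2, chr11:78574865-78575114, minus strand: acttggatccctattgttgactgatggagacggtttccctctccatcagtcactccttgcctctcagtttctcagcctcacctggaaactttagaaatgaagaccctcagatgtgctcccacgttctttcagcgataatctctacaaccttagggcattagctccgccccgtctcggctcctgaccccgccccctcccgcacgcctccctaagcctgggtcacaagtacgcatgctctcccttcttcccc
FARS2, chr6:5260757-5261006, plus strand: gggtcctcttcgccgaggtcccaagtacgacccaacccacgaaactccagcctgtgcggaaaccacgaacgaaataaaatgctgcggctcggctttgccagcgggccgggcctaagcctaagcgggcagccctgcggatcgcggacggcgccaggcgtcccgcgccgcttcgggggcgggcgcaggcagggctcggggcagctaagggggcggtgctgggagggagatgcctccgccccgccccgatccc

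Mitochondrial synthetase genes were expressed at lower levels than cytosolic ones. Per kilobase of merged exon length, the median wild-type level was 21.4 CPM per kb over the cytosolic and 5.30 CPM per kb over the mitochondrial genes. IARS2, for isoleucine, had the highest mitochondrial level, 23.7 (wild-type) and 26.6 (knockout) CPM per kb, and WARS2, for tryptophan, the lowest, 1.11 and 1.21. Merged exons of all annotated transcripts overstate the length of genes with many isoforms, so these levels are approximate.

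The mitochondrial set did not move as one. NARS2, for asparagine, stood apart at the low end, with 735 wild-type and 489 knockout counts, a log2 ratio of -0.51 (interval -0.68 to -0.35). The next lowest was MARS2 (methionine, 510 and 420 counts, -0.21, interval -0.40 to -0.02), and the intervals of the 2 genes overlap slightly. AARS2 (alanine, 613 and 513 counts, -0.18) and CARS2 (cysteine, 987 and 844 counts, -0.15) also had intervals below 0, which end at -0.01 and -0.02. With scaling by total counts in place of TMM, the intervals of MARS2, AARS2 and CARS2 included 0, and NARS2 was the 1 mitochondrial gene left with an interval below it. The interval of MARS2 also included 0 after a correction for GC content and length. PARS2, for proline (283 and 246 counts, -0.13), and TARS2, for threonine (376 and 338 counts, -0.08), had intervals that included 0.

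At the high end FARS2, which charges phenylalanine as a single chain in mitochondria, had 367 and 438 counts, a log2 ratio of 0.33 (interval 0.13 to 0.53). HARS2, for histidine, had 1451.65 and 1656.81 expected counts (0.26, interval 0.16 to 0.37), and VARS2, for valine, 960.99 and 1045.37 (0.19, interval 0.07 to 0.32, which included 0 after a GC and length correction). SARS2 (serine, 814.62 and 873.90 expected counts), LARS2 (leucine, 1370 and 1465 counts) and IARS2 (3316 and 3543 counts) each had a log2 ratio of 0.17. For these 6 genes the interval lay above 0. It included 0 for RARS2 (arginine, 477 and 502 counts, 0.15), WARS2 (143 and 149 counts, 0.13), EARS2 (glutamate, 1571 and 1587 counts, 0.09) and YARS2 (tyrosine, 948 and 956 counts, 0.09). The interval of WARS2, -0.21 to 0.47, was the widest of all members. Fractional expected counts in HARS2, VARS2 and SARS2 show that reads shared with other genes were divided. In the annotation their exons overlap those of ZMAT2, GTF2H4 and AC011455.2 on the same strand. HARS and HARS2 also overlap head to head over 437 exonic bases on opposite strands. Other opposite-strand partners were large for some members. Set against the wild-type count of the member, the count of MRPS12 was 206% for SARS2, that of UBFD1 161% for EARS2, AL359915.2 58.7% for WARS2, WDR55 51.1% for HARS and ING1 49.5% for CARS2. The shares were smaller for TERF2IP with KARS (23.8%), S100PBP with YARS (11.9%) and WDR25 with WARS (8.36%). The ATF4 target DDIT3, with 234 and 161 counts, overlaps MARS, at 5.24% of its wild-type count. Whether the counting used strand was not given in the sources used here. HARS, EARS2, WARS2, CARS2, KARS, YARS, WARS and MARS had whole-number counts in both libraries. So did the opposite-strand partners named here, apart from HARS2 and SARS2. The 3 members with fractional counts were those with a partner named on the same strand. Whether reads of the opposite-strand pairs were shared was not tested.

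Pairing each mitochondrial gene with its cytosolic counterpart gives a ratio of ratios that does not depend on how the libraries were scaled. There were 17 such pairs, since EPRS serves for both EARS2 and PARS2 and FARS2 faces both FARSA and FARSB, so that the pairs are not all independent. The knockout-to-wild-type ratio was lower in the cytosolic than in the mitochondrial gene in 13 of 17 pairs. The exact conditional interval, which covers counting error only, lay below 1 in 12 pairs, above 1 in 1 pair, and included 1 in 4. The matching shares for pairs of other expressed genes were not computed. For single expressed genes, intervals apart from 0 were common (25.5% below and 26.4% above), so these counts of pairs are a description. The median ratio of ratios was 0.811. It was lowest for YARS over YARS2, 0.646 (interval 0.583 to 0.717), followed by IARS over IARS2 with 0.676 (0.638 to 0.716), EPRS over EARS2 with 0.685 (0.630 to 0.744) and SARS over SARS2 with 0.695 (0.624 to 0.775).

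Asparagine was the exception. NARS was lower by less than NARS2, so their ratio of ratios was 1.26 (interval 1.11 to 1.42). The pairs for methionine (1.04, interval 0.903 to 1.19), arginine (1.04, interval 0.902 to 1.19), valine (1.09, interval 0.979 to 1.204) and tryptophan (0.864, interval 0.676 to 1.10) had intervals that include 1. In the methionine pair both genes were lower, and in the arginine and valine pairs both were higher. Per kilobase, the cytosolic gene had the higher wild-type level in 16 of 17 pairs, the other being HARS, at 0.825 of the level of HARS2. The level of YARS per kilobase was 1.11 times that of YARS2 in wild-type cells but 0.715 times in the knockout clone. This order rests on merged exon lengths of 8212 bases for YARS and 2152 for YARS2, which make such levels approximate. In CPM not divided by length, YARS lay above YARS2 in both libraries, at 118.9 against 28.2 (wild-type) and 81.6 against 29.9 (knockout).

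**Figure D3:**
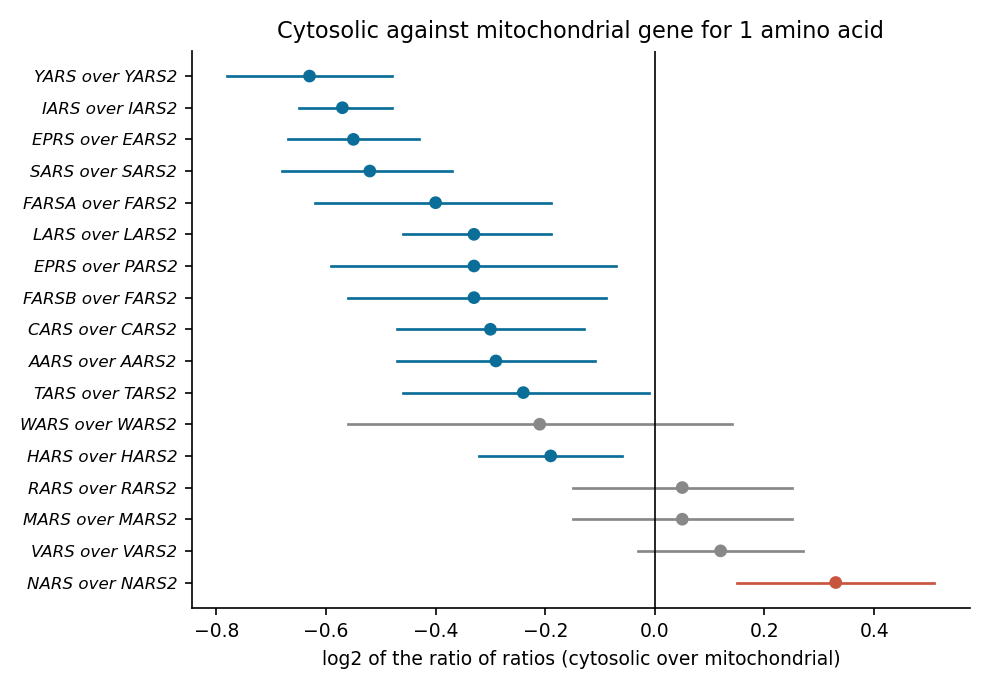
Log2 of the knockout-to-wild-type ratio of the cytosolic gene over that of its mitochondrial counterpart, with exact 95% counting intervals. Blue intervals lie below 0 (12 pairs), the red one above 0 (1 pair, NARS over NARS2) and grey ones include 0 (4 pairs).

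Other ATF4 targets were lower by more than the synthetases. Of 33 listed genes, with ATF4 itself counted among them, 31 were expressed, with a median log2 ratio of -0.63. An interval below 0 was found for 24, against 25.5% of expressed genes, and 16 were at least 1.5-fold lower, against 5.53%. At least 2-fold lower were 7 genes, against 1.66%. The lowest were ATF3, a stress-induced transcription factor (228 and 69 counts, -1.65), STC2, a secreted glycoprotein (1081 and 393, -1.39), and CHAC1, which degrades glutathione (159 and 58, -1.38). ATF4 mRNA itself had 8200 wild-type and 5674 knockout counts (-0.46, interval -0.51 to -0.41), near AARS and EPRS. The highest were PPP1R15A, a phosphatase subunit acting on eIF2alpha (0.24), the cystine transporter SLC7A11 (0.34) and ATF5 (0.57, interval 0.31 to 0.82). Earlier results of these data had already shown part of this list to be lower, so it is no independent support for the synthetases, and its part in their ratios was not tested.

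**Figure D4:**
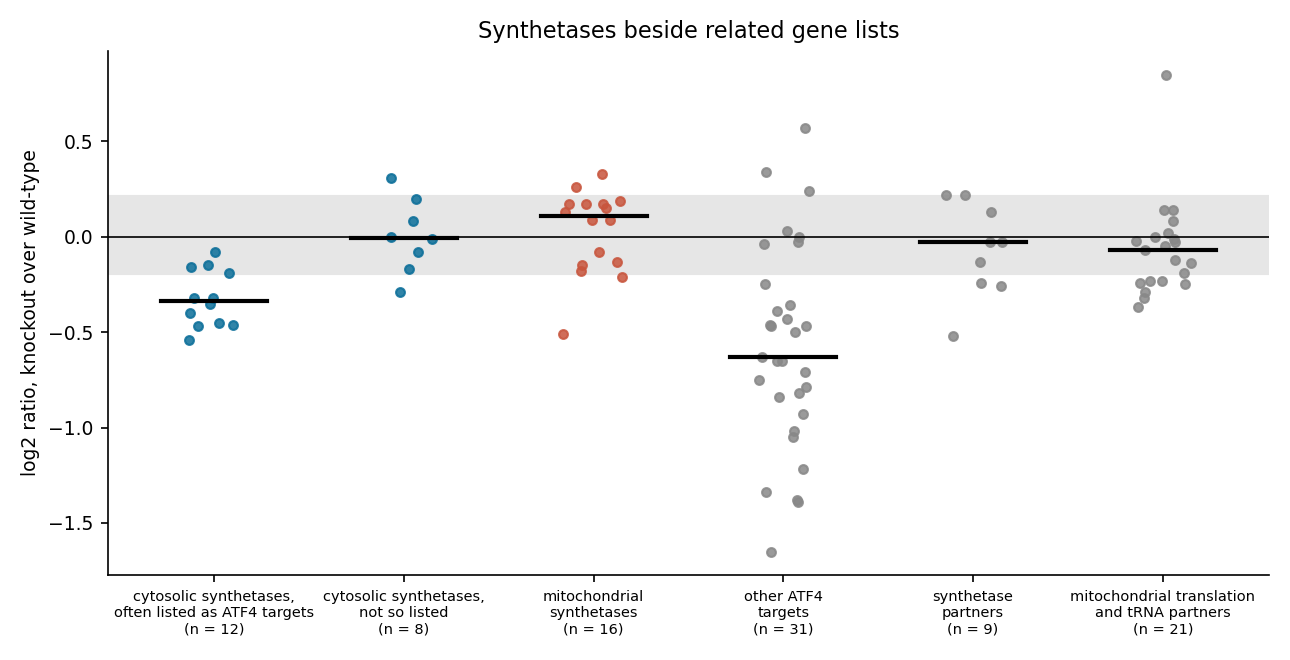
Log2 ratios of knockout over wild-type for the synthetase groups and for related gene lists, 1 point per expressed gene, with the median of each group (black bar) and the middle 50% of expressed genes (grey band). The 12 ATF4-listed cytosolic synthetases all lie below 0 (median -0.33). Their median lies between that of the other ATF4 targets, ATF4 itself included (-0.63), and those of the remaining cytosolic (0.00) and mitochondrial (0.11) synthetases.

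The kinases that act upstream of ATF4 did not differ beyond counting error. All 4 eIF2alpha kinases had intervals that included 0, with log2 ratios of -0.14 for EIF2AK3, -0.06 for EIF2AK2, -0.05 for EIF2AK1 and 0.05 for EIF2AK4, the sensor of uncharged transfer RNA. mRNA levels do not measure kinase activity.

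Partners of the synthetases had ratios on both sides of 0. Among 9 such genes the median was -0.03, with 3 intervals below 0, 2 above and 4 that included 0. Of all expressed genes, 25.5% had an interval below 0 and 26.4% above, so these counts are near the general shares. TARSL2, another threonyl synthetase gene, had the lowest ratio, with 389 and 257 counts (-0.52, interval -0.76 to -0.29), below that of TARS. It was followed by EEF1E1 as above and PSTK, a kinase that acts on seryl-tRNA in selenocysteine synthesis (62 and 50 counts, -0.24, interval -0.80 to 0.32). The highest were DTD1, which removes D-amino acids from tRNA (1106 and 1226 counts, 0.22, interval 0.10 to 0.34), AIMP1 as above and AARSD1, an editing factor for alanyl-tRNA (0.13).

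Of 21 expressed partners of mitochondrial translation and tRNA maturation, 8 had an interval below 0 and 1 above, against 25.5% and 26.4% of expressed genes, with a median of -0.07, below that of the mitochondrial synthetases. The ribosome recycling factor MRRF (1140 and 840 counts, -0.37, interval -0.50 to -0.24), the release factor MTRF1 (-0.32, interval -0.71 to 0.06) and C12orf65 (-0.29, interval -0.51 to -0.08) were lowest. GATB was the highest, with 578 wild-type and 989 knockout counts, 1.80-fold higher (log2 ratio 0.85, interval 0.70 to 1.0). It encodes a subunit of the amidotransferase that makes glutaminyl-tRNA in mitochondria from the glutamyl-tRNA that EARS2 supplies. The other subunits of that enzyme did not share its ratio, with QRSL1 at 0.14 (588 and 617 counts) and GATC at -0.24 (623 and 501 counts), and MTO1, a tRNA-modifying enzyme, stood at 0.14.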

How the data were processed

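The authors deposited expected counts per gene, estimates of reads that need not be whole and are not scaled between libraries, 1 column for each of the 2 libraries. The tools named in the submitters' processing notes are RSEM 1.2.26, STAR 2.4.2a and cutadapt 2.0, with build hg19. Annotation release, strand setting and filters were not given in the sources used here. RSEM divides reads shared between genes.

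Identifiers were matched without versions to GENCODE release 29 (52338 of 57820, 90.5%). Unmatched identifiers, which held 35.2% of knockout and 37.0% of wild-type counts, stayed in the totals. The 5 genes with the most counts held 47.1% of knockout and 48.4% of wild-type counts, so they weigh heavily in total-count scaling. Counts were rounded and scaled with TMM (edgeR 4.0.16, R 4.3.3) over the whole table. Log2 ratios have Clopper-Pearson 95% intervals of the 2 counts (scipy 1.17.1), sums have exact Poisson intervals, and pairs have exact conditional intervals of the odds ratio. These cover counting error alone and take each read pair as its own molecule. A gene was called lower or higher at 1.5-fold or 2-fold with an interval apart from 0. Ratios and intervals were tested on simulated Poisson counts with known library sizes. That does not check TMM, the division of shared reads or the spread between cultures.

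The members, lists and motifs were chosen with earlier results of these data known. All 36 members are named, and up to 3 genes at each end of a related list. AIMP2 and GATC were added after their values were seen, to complete a complex. Of 8 cell type markers 7 matched. Alternatives were other scalings, filters, the mean, and omission of members. Promoter windows read along the gene: in 35 of 39 member windows the bases after the start lay in a GENCODE transcript. No protein sequence was used here.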

Additional observations from a re-analysis of the deposited data

How the results depend on the processing

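The median of the cytosolic genes stayed below 0 and that of the mitochondrial genes above 0 under every alternative run: other scalings, no expression filter or one at 10 CPM, the mean, leaving out GARS and KARS, leaving out the member farthest from 0 in each set, unrounded counts, and 2 alternatives chosen after seeing the data (TMM over protein-coding genes, and a correction for GC content and length). The difference of the medians ranged from -0.34 with the GC and length correction to -0.22 with the mean. The mitochondrial value depended most on these choices: 0.03 with the mean and 0.18 with total-count scaling. Total-count scaling raises every log2 ratio by 0.07. With it the cytosolic median was -0.10, that of the ATF4-listed genes -0.26, and the summed counts had log2 ratios of -0.14 (cytosolic) and 0.16 (mitochondrial). With DESeq2 1.42.0 size factors the cytosolic sum was at -0.24. Under total-count scaling 4 cytosolic genes, all among those not listed as ATF4 targets, had an interval above 0, and 1 mitochondrial gene had one below 0. QARS changed sign there, to 0.062, with its interval above 0. Of the 36 single genes, 27 kept their place relative to counting error under total-count scaling, 31 under the GC and length correction and 35 with DESeq2 size factors. Among the genes so counted, QARS (0.005 with the GC and length correction) and FARSB (-0.02 with DESeq2 size factors) changed sign, with intervals that included 0. Genes whose interval newly excluded 0 were HARS, QARS, EARS2, RARS2 and YARS2 (total-count scaling), RARS2 and YARS2 (GC and length) and WARS (DESeq2). All 12 ATF4-listed genes lay below 0 under each scaling and the GC and length correction. No paired analysis was possible because each group has 1 library. Leaving out a replicate was not possible for the same reason. Among the members, depth limits mainly WARS2 and PARS2, which have the fewest counts. Differences between clones or cultures cannot be told apart from the knockout.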
